A study of Mus musculus with 24 samples.

Results

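Skeletal muscle transcripts were followed in RNA sequencing of the mouse colon carcinoma line CT26 with and without Sun1, a gene of the inner nuclear membrane. The set holds 10 genes chosen by symbol: Acta1, Ckm, Myh1, Myh2, Myh4, Neb, Ttn, Atp2a1, Des and Tnni2. All 10 have a row among the 35976 genes of the deposited tables. Of the set, 8 encode parts of the contractile filaments or their scaffold, while Atp2a1 encodes a calcium pump and Ckm an enzyme of energy supply, so the name "contractile genes" is used loosely. The question asked of the set is whether such transcripts in CT26 tumors belong to host muscle near some tumors or to the knockout cells themselves, which gave low counts of them in culture.

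The 24 libraries come from 3 settings. Cells cultured in RPMI with serum gave 1 library with the genotype Sun1 knockout and 1 library from each of 2 control lines with the genotype wildtype. Tumors taken at day 14 after subcutaneous injection of these cells into the flank of BALB/c mice gave 7 knockout libraries and 8 libraries of control line 1. Tumor cells isolated with a mouse tumor cell kit from such tumors gave 2 knockout libraries and 2 libraries of each control line, and are called purified cells here. The labels name 1 knockout line, so loss of Sun1 cannot be told apart from whatever else sets this line off. The age and sex of the mice, and whether a line is a clone or a pool, are not given in the sources used here. Whole tumors hold host cells as well as CT26 cells, and in such bulk RNA more cells of a type and more RNA per cell cannot be told apart.

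In striated muscle, thin filaments of actin slide past thick filaments of myosin inside the sarcomere, and each muscle fibre carries a set of myosin heavy chains that fits its speed. Fast fibres of mice use Myh4, Myh1 and Myh2, whose genes stand side by side, and the slow fibres of the limb use Myh7. Calcium released from the sarcoplasmic reticulum starts contraction through troponin, and the pump Atp2a1 returns it to the store. Below the skin of the mouse flank lie the thin panniculus muscle and the muscles of the body wall. CT26 is of colonic origin and is not known for muscle gene expression.

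The promoters of the 3 fast myosins and of Acta1 are shown as examples. In libraries with enough counts, the Myh4 share among these myosins did not overlap between knockout cell libraries and tumors. Neither did the Acta1 count per Myh4 count, nor that of Des or Ckm, while those of Atp2a1, Neb, Ttn and Tnni2 overlapped. All these ratios share the Myh4 count, and the share over all other genes was not computed. The sequences are from RefSeq (GRCm38.p6), 5′ to 3′ on the gene's strand, and end at the last base before the start site. Capitals mark, in the myosin promoters, the longest stretch that all 3 share, and in Acta1 the matches to the E-box CANNTG and the CArG box.
Myh4 chr11:67237562-67237811 (+): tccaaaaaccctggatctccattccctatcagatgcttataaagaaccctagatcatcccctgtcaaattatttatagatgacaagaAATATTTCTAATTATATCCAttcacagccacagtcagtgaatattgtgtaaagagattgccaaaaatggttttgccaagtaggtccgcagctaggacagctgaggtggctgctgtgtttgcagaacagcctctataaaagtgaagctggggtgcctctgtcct
Myh1 chr11:67199852-67200101 (+): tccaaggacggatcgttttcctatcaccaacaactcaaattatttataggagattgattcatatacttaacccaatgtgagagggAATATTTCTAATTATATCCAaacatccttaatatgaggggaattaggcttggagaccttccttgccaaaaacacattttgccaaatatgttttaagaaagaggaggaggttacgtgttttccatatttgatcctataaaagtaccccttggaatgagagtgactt
Myh2 chr11:67170777-67171026 (+): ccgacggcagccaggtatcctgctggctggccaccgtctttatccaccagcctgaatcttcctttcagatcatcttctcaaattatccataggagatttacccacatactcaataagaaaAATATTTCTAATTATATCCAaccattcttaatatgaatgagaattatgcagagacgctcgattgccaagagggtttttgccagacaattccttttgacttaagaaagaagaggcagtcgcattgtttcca
Acta1 chr8:123894776-123895025 (-): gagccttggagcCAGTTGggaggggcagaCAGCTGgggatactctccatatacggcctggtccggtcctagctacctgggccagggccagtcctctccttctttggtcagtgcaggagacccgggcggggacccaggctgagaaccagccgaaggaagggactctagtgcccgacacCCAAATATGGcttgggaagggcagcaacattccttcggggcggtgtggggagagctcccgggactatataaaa
The shared stretch has 20 bases, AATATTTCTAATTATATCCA, and starts at -163 in Myh4, -165 in Myh1 and -130 in Myh2, counted from the start site. Of 32851 mouse promoters in the table, 3 hold it on either strand, those of the 3 myosins. The promoter table held 8 of the 10 genes, with Neb and Tnni2 not matched. Over 300 bases, from 250 before to 50 after the start, both strands were searched for the E-box (CANNTG), the MEF2 site, the CArG box and TATAAA. An E-box was found in 6 of 8 promoters (72.3% of all promoters), a MEF2 site in 3 (3.19% of all; Ttn, Myh1 and Myh4), a CArG box in 2 (1.63% of all; Acta1 and Myh4) and TATAAA in 4 (13.6% of all). The MEF2 match overlaps a TATAAA match in Myh1 and in Myh4, and no motif match overlaps the shared stretch. A match is a run of letters and not a measured binding site.

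Myh2, Myh1 and Myh4 lie in that order on chromosome 11, at 67171027 to 67197517, 67200052 to 67224575 and 67238029 to 67260446 (GRCm38, GENCODE annotation). Their transcripts are alike in places. Of all windows of 100 bases in its longest transcript, Myh1 shares 9.73%, Myh2 9.17% and Myh4 3.85% with another gene. The genes shared with are each other, Myh8 or, for Myh1 and Myh2, Myh13. Counts can thus move between these genes in the authors' estimation, and their split is uncertain to that extent. The longest transcripts of the other 7 genes share no such window with another gene. Acta1 lies on chromosome 8 at 123891769 to 123894751, Des on chromosome 1 at 75360329 to 75368579, Neb and Ttn on chromosome 2, and Ckm, Atp2a1 and Tnni2 on chromosome 7.

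Libraries held 14140769 to 24651279 expected counts, the number of reads that the authors' software assigned to genes. Levels are CPM, counts scaled to the same library size in every library after TMM normalisation. Sun1, the targeted gene, measured 33.7 CPM in the cultured knockout library and 122.4 and 109.7 CPM in the control lines. Knockout tumors were at 57.5 ± 5.19 CPM (SD, n = 7) and control tumors at 178.9 ± 8.60 CPM (SD, n = 8), and purified cells at 50.9 and 55.5 CPM against 165.5 to 214.2 CPM. Each knockout library thus lay below each control library of its setting. Of 5 epithelial genes, Epcam and Krt19 were at 0 in every cultured and purified library, and Cdh1 in every cultured one. Krt18 went the other way, with 1268 and 2310 counts in the cultured controls and 12 in the cultured knockout library. The summed list was 69.8 and 119.7 CPM in the cultured controls and 0.838 CPM in the cultured knockout library. In purified cells it was 29.5 to 56.3 CPM in control and 0.726 and 0.734 CPM in knockout. Summed leukocyte markers were 274.5 to 861 CPM in tumors and 1.80 to 7.69 CPM in purified cells.

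The 10 genes were low in every setting. Their summed level was 6.61 CPM in the cultured knockout library and 0.768 and 1.55 CPM in the cultured controls. In purified cells it was 6.20 and 41.3 CPM for knockout and 3.15 to 5.35 CPM over the 4 control libraries. In tumors the lowest, median and highest sums were 7.81, 26.5 and 156.8 CPM for knockout and 6.20, 8.22 and 20.9 CPM for control. The knockout sum lay above each control sum in culture and in purified cells, whereas the tumor groups overlapped. Knockout tumor 1 held the highest knockout level of all 10 genes, and knockout tumor 6 the lowest of 8 of them. Among control tumors, tumor 6 was highest in 5 genes, tumor 2 in 4 and tumor 7 in 1. By the authors' TPM, which allows for gene length, the order of mean levels in knockout tumors was Tnni2 (7.56), Acta1 (7.42), Ckm (4.18), Des (2.91), Myh4 (0.779), Atp2a1 (0.564), Myh1 (0.554), Myh2 (0.181), Neb (0.120) and Ttn (0.061). The ranges of neighbours in that order overlapped across tumors. Tnni2 had the highest mean TPM in control tumors too, and in the purified cells of all 3 lines.

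**Figure D1:**
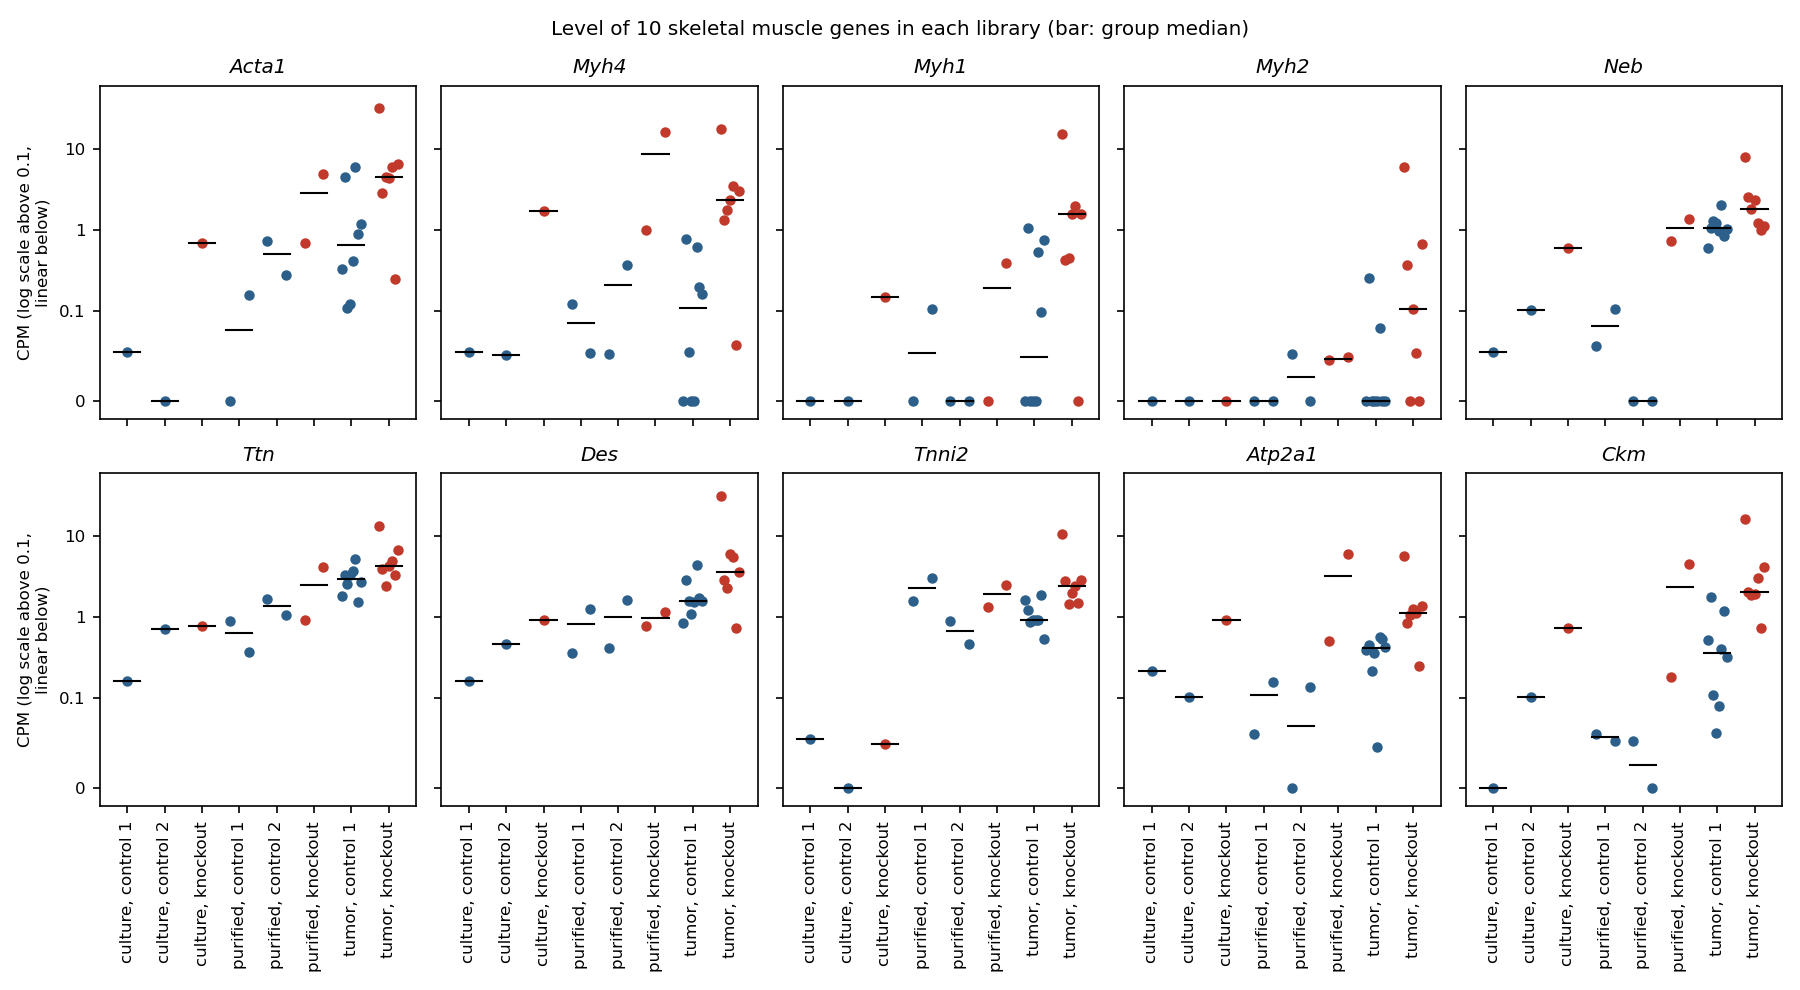
Level in CPM of each of the 10 genes in each library, on an axis that is logarithmic above 0.1 and linear below it (points: libraries; red, knockout; blue, control; bars: group medians). The highest point of the knockout tumors is tumor 1 in every panel, and the cultured knockout library lies above both cultured controls for all genes but Myh2, at 0 in all 3, and Tnni2.

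In whole tumors Ckm, Myh4, Neb, Ttn, Atp2a1, Des and Tnni2 were higher in the knockout group. These were 7 of 8 genes tested, at an edgeR adjusted p under 0.05, where 18.1% of all 13752 genes tested were called higher. The median log2 fold change was 2.04 over the 8 and 0.01 over all genes tested. Myh1 and Myh2 were too low to be tested. Testing needed 10 or more counts in enough libraries, and Ckm, Myh4 and Atp2a1 reached this in 7, 6 and 6 knockout tumors and in 3, 2 and 2 control tumors, so such genes were likelier to enter the test when high in knockout, and the count of calls supports nothing by itself. None of the 10 had all knockout tumors above all control tumors, which 3.12% of the genes tested did. DESeq2 called 9, the same 7 with Acta1 and Myh2. Without the filter on low counts edgeR called 5, Atp2a1, Ckm, Myh4, Tnni2 and Myh2, while Neb, Ttn and Des missed the threshold (edgeR adjusted p of 0.0558, 0.0992 and 0.0602).

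Myh4, the heavy chain of the fastest fibres, had the largest fold change of the 8 genes tested in tumors. Its lowest, median and highest levels were 0.062, 2.34 and 17.7 CPM in knockout tumors against 0, 0.109 and 0.765 CPM in control tumors. In 6 of 7 knockout tumors it lay above every control tumor, and only knockout tumor 6, with 1 count, fell within the control range. The log2 fold change was 4.14 ± 0.94 (SE; adjusted p = 0.00373 in edgeR), and without knockout tumor 1 it was 3.05 ± 0.71 (edgeR adjusted p = 0.00453). Myh1, the heavy chain of IIx fibres, measured 0, 1.56 and 15.3 CPM against 0, 0.049 and 1.07 CPM, with 4 control tumors at 0 and 4 knockout tumors above every control. Myh2, the heavy chain of IIa fibres, measured 0, 0.106 and 5.95 CPM against 0, 0 and 0.255 CPM, with 6 of 8 control tumors and 2 of 7 knockout tumors at 0. Where Myh2 was tested its log2 fold change lay above that of Myh4, at 4.35 (edgeR adjusted p = 0.0419) against 4.13 without the filter and at 4.60 against 4.25 in DESeq2.

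Acta1, the actin of skeletal thin filaments, was the tested gene that did not pass. It measured 0.248, 4.52 and 32.3 CPM in knockout tumors and 0.109, 0.650 and 6.04 CPM in control tumors, and all control tumors but 3 and 4 lay in the knockout range. The highest control tumors were 2 (4.49 CPM) and 6 (6.04 CPM), and only 2 knockout tumors lay above every control. The log2 fold change was 2.22 ± 0.89 (SE; adjusted p = 0.0650 in edgeR). It passed when knockout tumor 6 (2.42, edgeR adjusted p = 0.0396) or control tumor 6 (2.89, edgeR adjusted p = 0.0302) was left out, and was 1.23 (edgeR adjusted p = 0.251) without knockout tumor 1. Tnni2, the inhibitory troponin of fast fibres, measured 1.46, 2.40 and 10.7 CPM against 0.545, 0.929 and 1.87 CPM. In 5 of 7 knockout tumors Tnni2 lay above every control, with a log2 fold change of 1.62 ± 0.41 (SE; adjusted p = 0.00546 in edgeR) that fell to 0.97 ± 0.27 without knockout tumor 1 and still passed (edgeR adjusted p = 0.00987).

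The giant scaffold proteins differed less. Neb sets the length of thin filaments in skeletal muscle and Ttn spans the sarcomere as a spring. Neb measured 0.991, 1.81 and 7.87 CPM in knockout tumors against 0.593, 1.05 and 2.04 CPM, and Ttn 2.41, 4.31 and 13.2 CPM against 1.53, 3.01 and 5.26 CPM. Both overlapped widely, with 3 and 2 knockout tumors above every control. Neb had a log2 fold change of 1.18 ± 0.40 (SE; adjusted p = 0.0274 in edgeR) and lost its call without knockout tumor 1 (0.56, edgeR adjusted p = 0.138) or control tumor 1 (1.10, edgeR adjusted p = 0.0507). Ttn had 0.88 ± 0.33 (SE; adjusted p = 0.0450 in edgeR), and its call was lost without knockout tumor 1 (0.50, edgeR adjusted p = 0.130), 5 or 7, or control tumor 1, 2, 3, 4, 5, 7 or 8 (0.79 to 0.93). Des, an intermediate filament that links myofibrils and is found in smooth and heart muscle too, measured 0.744, 3.67 and 31.8 CPM against 0.857, 1.58 and 4.37 CPM, so the lowest knockout tumor lay below every control. Its log2 fold change was 1.95 ± 0.67 (SE; adjusted p = 0.0350 in edgeR), and the call was lost without knockout tumor 1 (0.86, edgeR adjusted p = 0.109) or control tumor 1, 3, 4, 5, 7 or 8 (1.85 to 1.93).

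The pump and the kinase were also higher in knockout tumors. Atp2a1, the calcium pump of fast fibres, measured 0.248, 1.12 and 5.71 CPM in knockout tumors and 0.046, 0.416 and 0.571 CPM in control tumors. Ckm, the muscle creatine kinase that buffers ATP, measured 0.744, 2.05 and 16.3 CPM against 0.061, 0.367 and 1.79 CPM. For each of them 6 of 7 knockout tumors lay above every control tumor, and knockout tumor 6 did not. Atp2a1 had a log2 fold change of 2.14 ± 0.52 (SE; adjusted p = 0.00401 in edgeR) and Ckm of 2.93 ± 0.74 (SE; adjusted p = 0.00670 in edgeR). Without knockout tumor 1 these were 1.38 (edgeR adjusted p = 0.0109) and 2.03 (edgeR adjusted p = 0.0104). Ckm, Myh4, Atp2a1 and Tnni2 passed with each of the 15 tumors left out in turn.

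The tumor libraries carry running numbers in a low range (4 knockout, 3 control) and a high range (3 knockout, 5 control), and what these numbers record is not given in the sources used here. With a term for the range, 4 genes were called, with log2 fold changes of 3.82 for Myh4, 2.71 for Ckm, 1.90 for Atp2a1 and 1.45 for Tnni2. Within the low range Atp2a1 (2.63) and Neb (1.87) passed, and within the high range Ckm (2.67). Myh4 was 4.28 in the low range (edgeR adjusted p = 0.125) and 3.38 in the high range (edgeR adjusted p = 0.0613), and neither passed. Neb changed sign, from 1.87 to -0.13 (edgeR adjusted p = 0.856) in the high range. Knockout tumor 1 belongs to the low range.

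**Figure D2:**
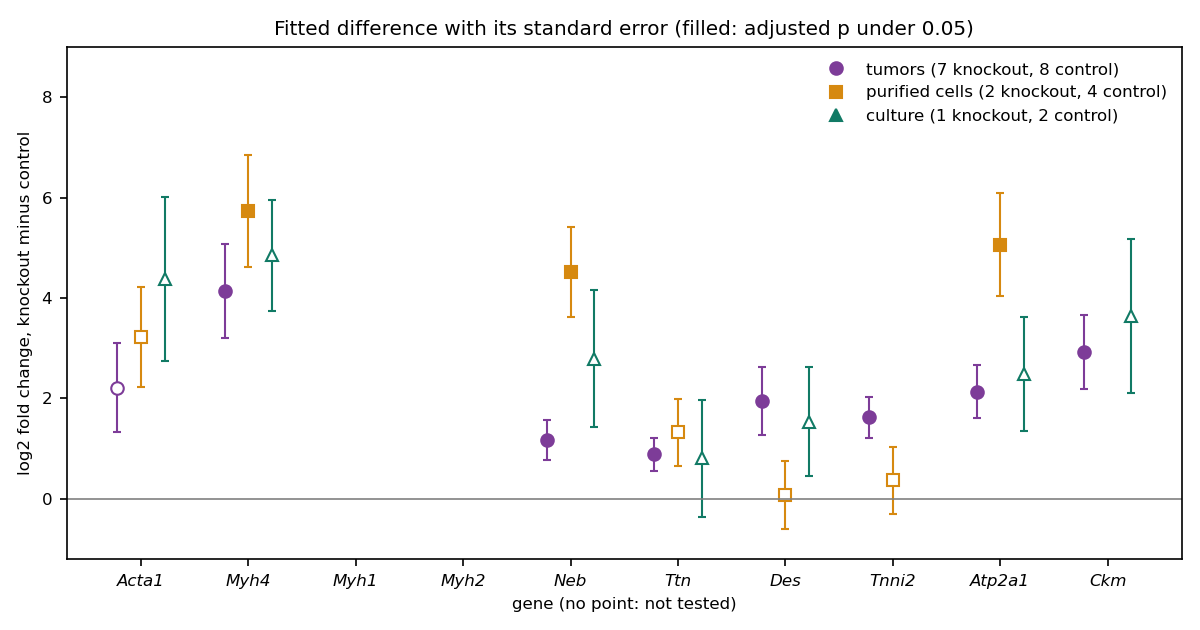
Log2 fold change of knockout against control (vertical axis) with its standard error for each gene in tumors, purified cells and culture (filled: edgeR adjusted p under 0.05; no point: not tested). Myh4 lies at 4.14, 5.73 and 4.85, while Des lies at 1.95 in tumors and 0.07 in purified cells.

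In purified cells Myh4, Atp2a1 and Neb were higher in knockout, and knockout library 2 held most of the counts. Of 7 genes tested these 3 were called higher, where 2.26% of all 12476 genes tested were. All 3 entered the test through the knockout libraries, since no control library held 10 counts of them, so they had to differ and their count supports nothing. Myh4 was at 1.01 and 16.1 CPM (22 and 333 counts) in knockout libraries 1 and 2, at 0.121 and 0.053 CPM in control line 1 and at 0.053 and 0.370 CPM in control line 2. Both knockout libraries lay above all 4 controls, with a log2 fold change of 5.73 ± 1.11 (SE; adjusted p = 0.0350 in edgeR). Without knockout library 2 the value was 2.69 (edgeR adjusted p = 0.462), and without control line 1 library 1 or 2 or control line 2 library 1 or 2 it was 5.46 to 6.74 and missed the threshold (edgeR adjusted p of 0.0517 to 0.106). It also missed it without the filter on low counts (5.73, edgeR adjusted p = 0.148), where the 3 calls were Neb, Atp2a1 and Ckm.

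Atp2a1 was at 0.505 and 6.00 CPM in knockout and at 0.061, 0.159, 0 and 0.139 CPM in the controls. It had a log2 fold change of 5.06 ± 1.02 (SE; adjusted p = 0.0302 in edgeR). This missed the threshold without control line 1 library 1 (4.94) or 2 (5.44) or control line 2 library 1 (4.67; edgeR adjusted p of 0.0591 to 0.0625), and the gene was not tested without knockout library 2 or control line 2 library 2. Neb was at 0.734 and 1.36 CPM (16 and 28 counts) in knockout and had 1, 2, 0 and 0 counts in the controls. Of the called genes Neb was the most even between the knockout libraries, with a log2 fold change of 4.52 ± 0.89 (SE; adjusted p = 0.0256 in edgeR), and it missed the threshold when knockout library 1 (4.88, edgeR adjusted p = 0.115) or 2 (4.02, edgeR adjusted p = 0.352) was left out. Against the summed controls the Neb count per total was 19.0 times as high in knockout library 1 (95% exact interval 5.44 to 101.7) and 35.7 times in library 2 (11.03 to 183.5).

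Ckm did not pass the filter in purified cells. It had 4 and 95 counts in knockout and 1, 1, 1 and 0 in the controls, a ratio of 4.75 (95% exact interval 0.803 to 32.4) for library 1, whose interval includes 1, and of 121.2 (40.2 to 597.9) for library 2. Without the filter its log2 fold change was 5.70 (edgeR adjusted p = 0.0153). Myh1 had 0 and 8 counts in knockout and 2 in 1 control library, and Myh2 had 1 count in each knockout library and 1 in control line 2 library 1. Acta1 was at 0.688 and 4.99 CPM in knockout against 0, 0.159, 0.737 and 0.277 CPM, a log2 fold change of 3.22 ± 0.99 (SE; adjusted p = 0.110 in edgeR). Knockout library 1 lay within the control range for Acta1. For Ttn (1.33, edgeR adjusted p = 0.288), Tnni2 (0.37, edgeR adjusted p = 0.791) and Des (0.07, edgeR adjusted p = 0.966) the groups overlapped. Ckm, Myh4, Neb and Atp2a1 had both knockout libraries above all 4 controls, beside 16.5% of the genes tested. Of these, Ckm was not tested and the others entered the test through the knockout libraries. DESeq2 called 5 genes, the 3 above with Acta1 and Ckm.

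In culture 0 of 7 tested genes passed in edgeR, where 0.0% of all 12175 genes tested did, and DESeq2 called 0 as well. At an unadjusted edgeR p under 0.05 there were 2, Acta1 and Myh4, among 659 genes. The fit has 1 residual degree of freedom and takes the lone knockout library to vary as the controls do. Of the 7, only Ttn reached 10 counts in a control library, so the other 6 entered the test through the knockout library. Myh4 had 35 counts (1.72 CPM) in the knockout library and 1 count in each control, 32.4 times as many per total (95% exact interval 8.32 to 277.8). The fitted log2 fold change of Myh4 was 4.85 ± 1.11 (SE; adjusted p = 0.605 in edgeR). Acta1 had 14 counts against 1 and 0, a ratio of 25.9 (3.94 to 1095), and Ckm 15 against 0 and 2, a ratio of 13.9 (3.23 to 125.0).

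The remaining cultured counts were as low. Neb had 12 counts in the knockout library against 1 and 2, Atp2a1 19 against 4 and 2, and Des 19 against 3 and 9. Their ratios to the summed controls were 7.40, 5.86 and 2.93, each with a 95% exact interval above 1 (from 2.00, 2.25 and 1.35). Ttn had 16 counts against 3 and 14, a ratio of 1.74 (0.823 to 3.66), and Tnni2 1 count against 1 and 0. Myh1 had 3 counts in the knockout library and 0 in the controls, and Myh2 had 0 in all 3. The knockout library lay above both controls for 8 of the 10 genes, beside 35.9% of the genes tested. Of the 8, Myh1 was not tested, and all others but Ttn entered the test through the knockout library. Their count thus supports nothing. Intervals of this kind cover counting error between libraries and not the spread between cultures.

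The make-up of the muscle transcripts differed between the cells and the tumors. Of the summed counts of Myh1, Myh2 and Myh4, Myh4 made up 92.1% in the cultured knockout library (exact Clopper-Pearson 95% interval 78.6 to 98.3%, 38 counts). It made up 95.7% (78.1 to 99.9%, 23 counts) and 97.4% (95.1 to 98.8%, 342 counts) in purified knockout libraries 1 and 2. In the 9 tumors with at least 10 such counts the share was 17.6 to 79.5%. Knockout tumor 1, with the most myosin counts, had 45.6% (42.1 to 49.1%, 812 counts), and the other 5 knockout tumors with enough counts had 57.9 to 79.5%. Control tumors 2 and 8 had 36.6% and 17.6%, and control tumor 6 had 15 of 30 counts. The 3 cell libraries thus lay above all 9 tumors, although the intervals of the cultured and the first purified library overlap that of knockout tumor 3 (79.5%, 64.7 to 90.2%). These shares are a description with no test.

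**Figure D3:**
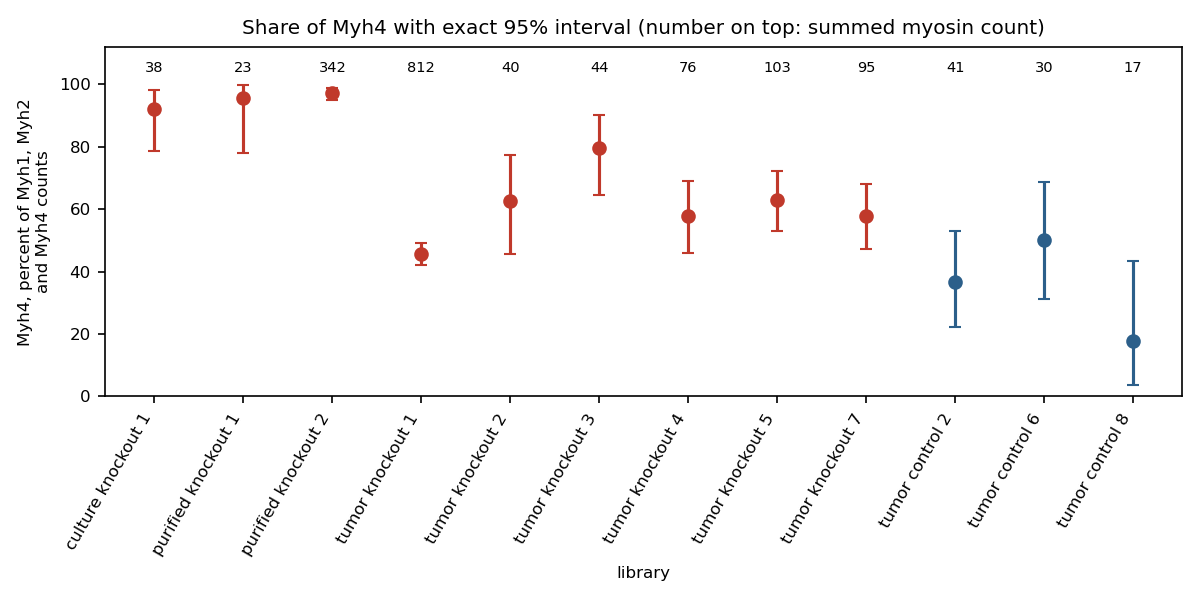
Share of Myh4 in the summed counts of Myh1, Myh2 and Myh4 (percent) in the 12 libraries with at least 10 such counts, with exact 95% intervals that cover counting error (red, knockout; blue, control; numbers on top, summed counts). The 3 cell libraries lie at 92.1 to 97.4% and the tumors at 17.6 to 79.5%.

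Of 7 genes set against Myh4, 3 gave ratios that did not overlap between cells and tumors. All 7 ratios share the Myh4 count, so they are not separate observations, and the share over all other genes was not computed. Acta1 counts per Myh4 count were 0.309 to 0.682 in the 3 knockout cell libraries and 1.72 to 9.87 in the 8 tumors with at least 10 Myh4 counts. Des per Myh4 was 0.072 to 0.773 in the cells and 1.20 to 7.13 in the tumors. Ckm per Myh4 was 0.182 to 0.429 and 0.667 to 2.33. The other 4 ratios overlapped, with Atp2a1 per Myh4 at 0.372 to 0.543 in the cells and 0.322 to 0.933 in the tumors. Neb per Myh4 was 0.084 to 0.727 and 0.354 to 3.33, Ttn per Myh4 0.258 to 0.909 and 0.746 to 8.60, and Tnni2 per Myh4 0.029 to 1.32 and 0.603 to 2.12. The ratios were computed from counts, so they depend on transcript length and are compared only between libraries.

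Tumors were also set against purified cells of the same line. In knockout, Des was higher in tumors than in purified cells by a log2 fold change of 2.99 ± 1.20 (SE; adjusted p = 0.0427 in edgeR), the only call among 10 genes tested, where 31.2% of 15094 genes were called higher in tumors. That call was lost without purified knockout library 1 (2.71, edgeR adjusted p = 0.207) or 2 (3.29, edgeR adjusted p = 0.148), or control line 1 library 1 or 2 (2.97 each). Myh4 (-0.97, edgeR adjusted p = 0.453) and Atp2a1 (-0.93, edgeR adjusted p = 0.303) had values below 0 that did not pass. In control line 1, Neb (3.68 ± 0.98 SE, edgeR adjusted p = 0.00302) and Ttn (2.29 ± 0.74 SE, edgeR adjusted p = 0.0143) were higher in tumors, where 29.2% of genes were. DESeq2 called 2 genes in knockout, Des and Ttn. In control line 1 it called 3, Neb, Ttn and Acta1 (4.44, DESeq2 adjusted p = 0.0136). Without control line 1 library 1 Neb missed the threshold (3.37, edgeR adjusted p = 0.0523), and without library 2 Ttn did (1.75, edgeR adjusted p = 0.172).

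The knockout difference itself was compared between tumors and purified cells. The purified arm used the mean of both control lines, of which line 2 has no tumor libraries and held 0 Neb counts, so the fitted value of Neb depends on how 0 counts are treated. Neb differed by -4.25 ± 1.24 on the log2 scale (SE; adjusted p = 0.0266 in edgeR), with a smaller knockout difference in tumors, and was the only gene of the 10 called, where 7.47% of genes were called in that direction. This was lost without purified knockout library 2 (-3.75, edgeR adjusted p = 0.147) and without control line 1 library 1 (-4.12) or 2 (-4.49) or control line 2 library 1 (-4.26) or 2 (-4.26; edgeR adjusted p of 0.0571 to 0.0811). With control line 1 as the only purified control, an alternative chosen after seeing the data, Neb differed by -2.36 ± 1.19 (SE; adjusted p = 0.2195 in edgeR) and 0 of the 10 genes passed, with Tnni2 (1.89) alone at an unadjusted p under 0.05. In the contrast with both lines, for Myh4 the estimate was -1.77 ± 2.09 (SE; adjusted p = 0.640 in edgeR) and for Atp2a1 -2.94 ± 1.27 (SE; adjusted p = 0.134 in edgeR). With errors of this size, a difference of several-fold in either direction could not be detected for Myh4.

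Some other muscle genes, from lists taken whole, were also higher in knockout tumors. Of 25 further sarcomere genes 10 could be tested and 4 were higher, where 18.1% of all genes tested were, with a median log2 fold change of 1.31 against 0.01 over all genes. Tnnc2, the calcium sensor of fast troponin, differed by 3.07 ± 0.92 (SE), Mylpf, the fast regulatory light chain, by 1.51 ± 0.50 and Myom1, an M-band protein, by 1.10 ± 0.31 (edgeR adjusted p = 0.0181, 0.0253 and 0.00916). The summed level of that list was 6.94, 20.4 and 127.3 CPM in knockout tumors and 6.53, 8.98 and 20.9 CPM in control tumors, again with knockout tumor 1 and control tumor 6 highest. In purified cells it was 5.78 and 22.1 CPM in knockout and 3.58 to 6.33 CPM in control, and in culture 8.38 against 3.18 and 5.47 CPM. Of 7 tested in each of these settings 0 passed in edgeR and 0 had an unadjusted p under 0.05, while DESeq2 called 2 in purified cells (Tnnt3 and Tnnc2) and 0 in culture. In tumors DESeq2 called 8 of the list. Tnnc2 had 5 and 52 counts in the purified knockout libraries and 0, 0, 1 and 0 in the controls, and Myl1, a fast light chain, had 4 and 23 against 0 in all 4. Myl1 had 5 counts in the cultured knockout library and 0 in both controls.

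Slow fibre genes were low, apart from Tnnc1, a troponin of slow and heart muscle, with 5 to 45 counts in all 24 libraries. Myl3, a slow light chain, was at 0 in all 24 libraries, and Myh7, the slow heavy chain, had at most 5 counts in any tumor. Knockout tumor 1, with 318 Myh1 and 370 Myh4 counts, had 3 of Myh7. Of 9 slow genes Tnnc1 alone was tested in tumors and did not pass (0.09, edgeR adjusted p = 0.823), and DESeq2 called 2, Tnnt1 and Tnni1. In culture Tnnc1 had 45 counts in the knockout library and 10 and 6 in the controls, a log2 fold change of 2.35 ± 0.84 (SE; adjusted p = 0.902 in edgeR) with an unadjusted p under 0.05. Csrp3, which slow and heart muscle share, had 111 counts in knockout tumor 1 and at most 9 in any other library. Of the genes of excitation and calcium release 5 of 16 were tested in tumors and 0 passed in edgeR or had an unadjusted p under 0.05, with Ryr1, the calcium release channel, at 0.58 (edgeR adjusted p = 0.266). DESeq2 called 2 of them, Casq1 and Pvalb. Pvalb, a calcium buffer of fast fibres, had 1 and 33 counts in the purified knockout libraries and 0 in the 4 controls. Among 12 muscle energy genes 3 of 5 tested were higher in knockout tumors, again beside 18.1% of all genes: the glycogen phosphorylase Pygm (1.02), the kinase subunit Phkg1 (1.41) and Cox6a2 (0.71; edgeR adjusted p of 0.0360, 0.0383 and 0.0409).

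Genes of muscle stem cells and of forming muscle were sparse, apart from Pax3 and Myl4. Pax3, a factor of muscle precursors, had 66 to 166 counts in all 24 libraries. Myl4, of the embryonic list, had 62 counts in knockout tumor 1 and 32 and 28 in purified control line 1. In culture it had 10 counts in the knockout library and 8 and 4 in the controls. Pax7, the satellite cell factor, had 1 count, in control tumor 8, and 0 in the other 23 libraries. Myod1 had at most 3 counts in any library. Myog, the factor of differentiating myoblasts, had 23 counts in knockout tumor 1 and 22 in control tumor 6, at most 7 in other tumors, 2 in the cultured knockout library and 0 in all purified libraries. Of the embryonic and perinatal genes, Myh3 had at most 10 and Myh8 at most 6 counts in a tumor, both were at 0 in all purified libraries, and Myh3 had 3 counts in the cultured knockout library. Of 10 regulators and 5 embryonic genes 1 each could be tested in tumors, Pax3 (-0.25) and Myl4 (0.61). Neither passed in edgeR or had an unadjusted p under 0.05, and DESeq2 called 0 of either list.

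Markers of other cells that lie near the skin or in muscle did not all follow the muscle genes. Of the adipocyte list 2 of 11 were tested in tumors: Fabp4, also made by endothelium, was higher (0.54, edgeR adjusted p = 0.0358) and Plin4 lower (-0.68, edgeR adjusted p = 0.00853). The summed adipocyte list was 46.9 CPM in knockout tumor 1, 17.5 to 24.6 CPM in the other knockout tumors and 16.2 to 23.7 CPM in control tumors, and the defining marker Adipoq had 6 counts in knockout tumor 1 and at most 2 elsewhere. The summed keratinocyte list was 8.20 to 11.4 CPM in knockout and 5.80 to 9.26 CPM in control tumors, lowest among knockouts in tumor 1, with Krt15, Dsg3 and Lor at 0 in all tumors. Of that list 1 of 4 tested genes was higher, Trp63 (1.04, edgeR adjusted p = 0.0190). Summed smooth muscle markers were 77.0 to 97.2 CPM in knockout and 72.4 to 107.5 CPM in control tumors, with 0 of 5 tested genes called in edgeR, 1 at an unadjusted p under 0.05 and 0 in DESeq2. Summed Schwann cell markers were 13.9 to 19.8 and 15.5 to 22.5 CPM, with 1 of 3 called, Prx, lower (-0.25). The cultured cells, which hold no host tissue, already had keratinocyte sums of 6.76 to 8.78 CPM. Their smooth muscle sums were 78.0 to 84.5 CPM and their Schwann cell sums 14.1 to 17.35 CPM. In tumors these sums thus cannot tell host cells from CT26 cells. The part of the lists in this paragraph in the difference of the muscle genes was not tested.

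Some endothelial and leukocyte genes were higher in knockout tumors too, although the summed lists overlapped between the groups. Of 10 endothelial genes tested 5 were higher, among them Pecam1 (0.53, edgeR adjusted p = 2.77e-05), and the list summed to 112.4 to 174 CPM against 88.2 to 114.7 CPM. Of 8 leukocyte genes tested 4 were higher, among them Cd3g (1.45) and Cd8a (1.24), and the sums were 418.1 to 861 CPM against 274.5 to 698.1 CPM. Both shares stand beside the 18.1% of all genes called higher, and the medians were 0.54 and 0.63 against 0.01 over all genes. Both sums peaked in knockout tumor 1, though for leukocytes knockout tumor 5 was close to it at 858.3 CPM. Of 10 fibroblast genes tested 3 were higher and 2 lower. Of 2 heart markers tested, Tnnt2, the cardiac troponin T, was higher (1.72, edgeR adjusted p = 5.57e-07) and the peptide gene Nppb lower (-1.38). DESeq2 called 4 of that list, adding Tnni3 and Ryr2. Tnni3 had 2 to 27 counts in knockout tumors and 0 to 9 in control tumors, and Ryr2 had 0 to 8 against 0. Myl7 was at 0 in all 24 libraries and Myh6 had at most 1 count in a tumor. Tnnt2 had 1094 counts in the cultured knockout library and 722 and 384 in the cultured controls. Whether host cell content accounts for the muscle genes was not tested.

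**Figure D4:**
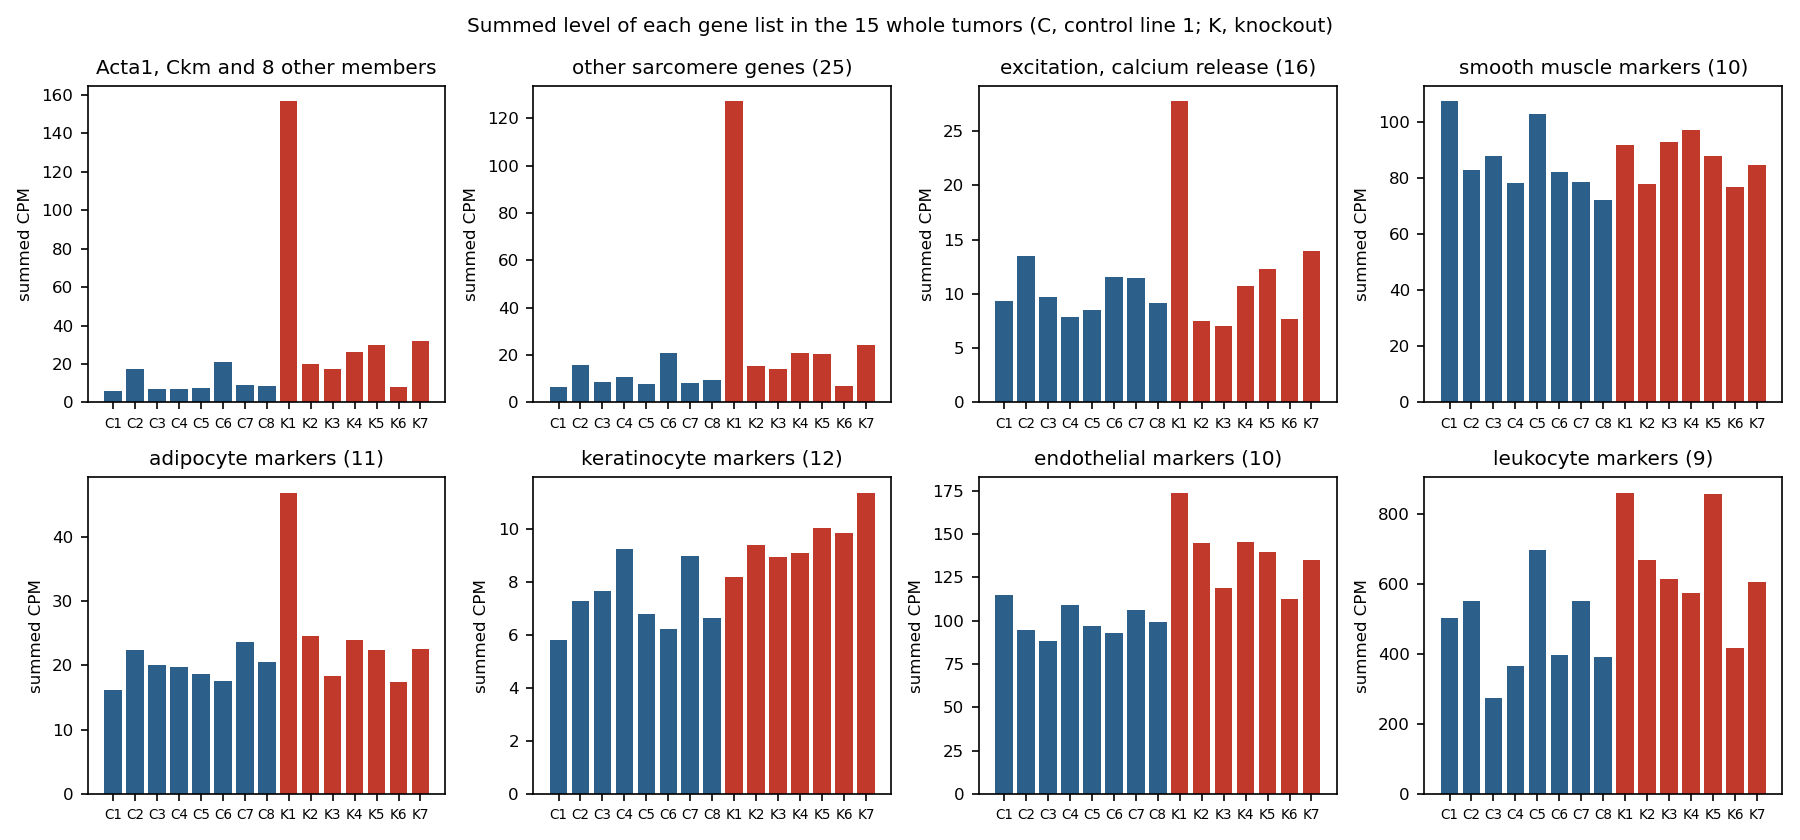
Summed CPM of 8 gene lists in each of the 15 tumors (bars; C1 to C8, control line 1 tumors in blue; K1 to K7, knockout tumors in red). Knockout tumor 1 reaches 156.8 CPM for the 10 muscle genes and 46.9 CPM for adipocyte markers, but has the lowest keratinocyte sum of the knockout tumors, 8.20 CPM. Cultured cells alone had keratinocyte sums of 6.76 to 8.78 CPM.

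Across tumors of the same genotype the 10 genes rose and fell together. With each gene's log2 CPM taken as its deviation from the genotype mean, the Pearson correlation of a gene with the mean of the other 9 over the 15 tumors was 0.68 to 0.95, highest for Myh4 and lowest for Tnni2, Neb and Ttn. The genes outside the set most like its mean were Tnnt3 (r = 0.94), Xirp2 (0.93), Tnnc2 (0.93), Tnc (0.90), Tpm2 (0.88), Ednrb (0.87), Ryr1 (0.86), H19 (0.85), Fibin (0.84) and Tmem45a (0.83). Of these, Tnnt3, Xirp2, Tnnc2 and Ryr1 belong to the muscle lists, and Tpm2 encodes a tropomyosin of slow muscle and other cells. Without knockout tumor 1 the correlations of these 10 outside genes were 0.71 to 0.94. Those of the 10 members are not given without that tumor, which was the highest knockout tumor in each of them. The tumors share libraries and depth across all genes, and these values are a description of the 15 tumors.

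The authors' deposited tables give control over knockout, so a negative value means higher in knockout. In the authors' deposited table for tumors Myh4 is at -4.09, Ckm at -4.36, Acta1 at -1.80, Tnni2 at -1.24, Atp2a1 at -1.06 and Des at -1.88, and all but Myh2 of the 10 have an adjusted p under 0.05 there. In the authors' deposited table for purified cells Myh4 (-5.93), Atp2a1 (-3.38) and Neb (-2.36) have an adjusted p under 0.05, and Acta1 (-1.26) and Ckm (-3.72) do not. In the authors' deposited table for culture Myh4 is at -4.89 with an adjusted p of 0.460. The mean normalised counts in the authors' deposited tables are not those of the deposited expected counts. For cultured Acta1 the authors' deposited table gives 29.3, where the expected counts are 14, 1 and 0. The values above and the authors' values thus rest on different counts.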

How the data were processed

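The deposited tables hold gene counts, FPKM and TPM for each library. Per the labels' protocols, RNA was extracted with TRIZOL, messenger RNA was enriched and libraries were read on an Illumina instrument. Per the submitters' processing notes the tools were FastQC, STAR, RSEM and DESeq2 with mm10 (GRCm38); their versions and order are not given in the sources used here. The expected counts that the authors deposited are RSEM's estimates, which share out reads between alike genes, and were rounded to whole numbers here. The TPM values deposited by the authors allow for length and were used only to compare levels between genes and in an alternative test. The FPKM values deposited by the authors were not used. The authors' deposited comparison tables, control over knockout per the file headers, hold a mean normalised count (here called signal), a log2 fold change with its error, a Wald score and p-values.

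Counts were tested in edgeR 4.0.16 (R 4.3.3) with the quasi-likelihood test, TMM and filterByExpr (minimum count 10, minimum total 15). The fits were: tumors alone, purified cells alone with both control lines as one arm, culture alone, and tumors with purified cells for the comparisons of settings and the difference of knockout effects. P-values were adjusted by Benjamini-Hochberg over all genes tested, with a threshold of 0.05. Alternatives were DESeq2 1.42.0, its size factors, no filter, limma 3.58.1 on log2 CPM and on log2(TPM + 0.1), dispersions without robust estimates, a term for the number range, each range alone, replicate number as a block and each library left out, and, added after seeing the data, control line 1 as the only purified control for the difference of knockout effects. The tests were tested on simulated data. Depth was 18832201 to 20716917 counts in culture, 17068356 to 22593612 in purified cells and 14140769 to 24651279 in tumors, and the 10 genes together had 14 to 134, 52 to 854 and 94 to 3268 counts. Confidence intervals cover counting error only, and reads carry no molecular identifiers. Labels do not say whether libraries of a group come from separate animals or isolations, so p-values measure the spread between these libraries. In no group did 2 libraries agree within sampling noise (lowest chi-square per gene 7.38).

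The 10 genes and the gene lists were chosen with earlier results of these data known. The text names all 10, up to 3 tested genes of each list with the smallest p in tumors, genes at 0 in all libraries, and the 10 genes outside the set whose deviations across tumors were most like its mean. Other list genes given by their counts or calls were chosen after their values were seen. Promoters come from RefSeq (GRCm38.p6) and positions from the GENCODE annotation of GRCm38. Proteins were not used here.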

Additional observations from a re-analysis of the deposited data

Results flagged for a closer look

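Knockout tumor 1 stood far from the other 6 knockout tumors in each of the 10 genes, with a gap to the next tumor that took up most of the group's range. It measured 32.28 CPM of Acta1, 16.26 of Ckm, 15.25 of Myh1, 5.948 of Myh2, 17.75 of Myh4, 7.867 of Neb, 13.24 of Ttn, 5.708 of Atp2a1, 31.76 of Des and 10.7 of Tnni2. In control tumor 2 Myh2 stood apart as well, at 0.2549 CPM, where 6 of the other 7 control tumors were at 0. Of 20 groups examined, 11 held such a library and 10 of these were knockout tumor 1. For independent, normally spread values chance gives about 1 such library in 20 groups, and the 10 genes move together, so the 10 are not separate observations.

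The knockout difference of Neb was smaller in tumors than in purified cells by -4.254 on the log2 scale (edgeR adjusted p = 0.0266) when the purified arm used the mean of both control lines. Line 2 has no tumor libraries and held 0 Neb counts, and the 4 purified control libraries held 3 in all. With control line 1 as the only purified control, chosen after seeing the data, the value was -2.36 and did not pass (edgeR adjusted p = 0.2195). Fitted apart, with both lines in the purified arm, the difference was 1.18 in tumors and 4.52 in purified cells.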

How the results depend on the processing

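Of 7 genes called in tumors, 4 remained called under the limma tests on log2 CPM and on log2(TPM + 0.1) (4 each) and with a term for the number range (4). There were 2 within the low range, 1 within the high range, where Neb turned to -0.1252, and 4 to 9 with a library left out. With the replicate block, tumors gave 3 (Atp2a1, Ckm, Tnni2) and purified cells 2 (Atp2a1, Myh4; Neb 4.53, edgeR adjusted p = 0.0532). Same-numbered libraries did not deviate together (r from -0.128 to 0.248 in tumors and from -0.0594 to 0.0928 in purified cells). With 2 purified libraries in a group the deviations mirror each other, so this check cannot show what same-numbered purified libraries share. Without the filter 5 were called in tumors, with Myh2 and without Neb, Ttn and Des, and 3 in purified cells, with Ckm and without Myh4. In purified cells 3 genes became 5 with DESeq2 and 0 to 3 with a library left out. Of the genes not called there, Ttn ranged from -0.1171 to 2.041, Des from -0.2245 to 0.4969 and Tnni2 from -0.1461 to 0.9967. The lowest values came without knockout library 2, and Des was also below 0 without control line 1 library 1 (-0.1827) or control line 2 library 1 (-0.166). Between settings, 1 gene in knockout became 0 without the filter, 2 with DESeq2 and 0 to 1 with a library left out. The 2 in control line 1 became 1 to 2, and the 1 difference of effects 0 to 1 with a library left out and 0 with control line 1 as the only purified control, which was added after seeing the data. For control line 1, DESeq2 called 3 genes, the same 2 with Acta1. Where a library was left out, fewer libraries were tested, and otherwise the cause was not tested. In culture 0 genes were called under each alternative run, and leaving out a control line leaves no test.

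Low counts limit these comparisons: the 10 genes together had at most 134 counts in a cultured library and at most 854 in a purified one, and the culture comparison rests on 1 knockout library.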
